A study of Caenorhabditis elegans with 8 samples.

Results

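The nuclear pore proteins and importins of Caenorhabditis elegans were taken as every gene of the count table whose WormBase symbol starts with npp-, imb- or ima-. This gave 32 of 20389 genes, of which 26 were npp-, 3 were imb- and 3 were ima- genes. Their mRNA was compared between mixed-stage embryos (n = 4 libraries), released with bleach from parents of unsynchronized age, and larvae (n = 4 libraries), grown for 24 hours on NGM plates after hatching overnight. Larvae are given as L3 in the labels and as L2/L3 in the study's methods. Both stages were whole animals of strain VC199, genotype sir-2.1(ok434) IV, so every library, embryo and larvae alike, is labelled as carrying the deletion allele of the deacetylase gene sir-2.1. No library here is labelled wild type, and the values below describe stage in this strain only.

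The nuclear pore is a ring of nucleoporins set in the nuclear envelope. A Y-shaped complex and an inner ring form its scaffold, membrane nucleoporins anchor it, and proteins rich in phenylalanine-glycine (FG) repeats fill the channel and its cytoplasmic and nuclear sides. Importin alpha binds the nuclear localization signal of a cargo protein, importin beta carries the pair through the channel, and the GTPase Ran releases the cargo inside the nucleus. In C. elegans embryos the nuclear envelope breaks down and reforms, pores included, with each fast division cycle.

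The 8 libraries held 13687095 to 31292935 gene counts, and replicate libraries of a gene varied by 21.8% (embryos) and 30.9% (larvae) beyond counting noise, as edgeR's common coefficient of variation. The labelled deletion was not evident as a loss of reads: sir-2.1 had 1225 to 2424 counts in embryos and 570 to 1036 in larvae, where counts per gene do not show which part of the gene was read. It was lower in larvae (log2 fold change -0.44 ± 0.13 SE, edgeR adjusted p = 0.00970). The library codes in the labels start with SEA for all embryos and MK for all larvae. What the codes stand for is not stated, so stage and library series cannot be told apart. Counts in whole animals also cannot tell fewer cells of a type from less RNA per cell.

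Most of these genes were lower in larvae than in embryos. In a quasi-likelihood test (edgeR) on the raw counts, with trimmed-mean (TMM) library scaling and Benjamini-Hochberg adjustment over all 13571 genes tested, 26 of the 32 genes were called lower in larvae at 0.05, 1 was called higher and 5 were not called. All 32 passed the filter on low counts. Of all genes tested, 37.2% were called lower, 36.9% higher and 74.1% in either direction, so a call alone was common between these stages, while the share of the 32 that was lower (81.25%) lay above that of all genes. The median log2 fold change over the 32 genes was -0.88, a 1.84-fold lower level, against -0.03 over all genes tested. In normalized counts (CPM, counts per 1000000 over TMM-scaled library sizes), all larvae libraries lay below all embryo libraries for 25 of the 32 genes, where 35.6% of all genes tested did so. For 1 gene, npp-12, all larvae lay above all embryos, as for 33.3% of all genes.

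**Figure D1:**
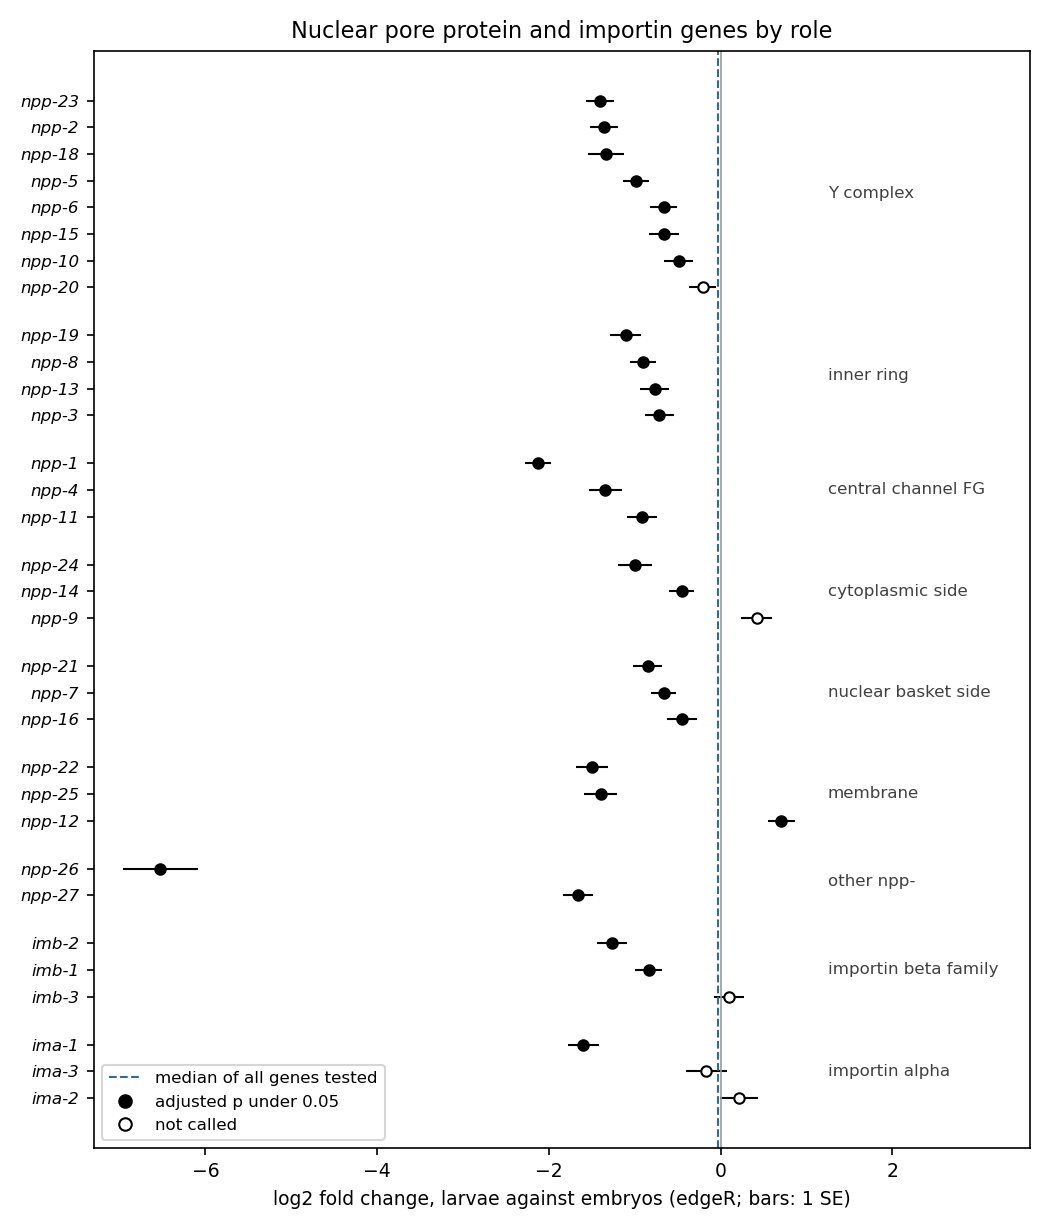
Log2 fold change of each gene, larvae against embryos (horizontal axis, edgeR estimate with 1 SE as bars), grouped by role. Filled points passed an adjusted p of 0.05 and open points did not. The dashed line is the median of all genes tested (-0.03), and all filled points except npp-12 lie to its left.

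The Y complex, the outer scaffold, was lower for 7 of its 8 measured genes, with a median log2 fold change of -0.83. The largest falls were those of npp-23 (the Nup43 ortholog, -1.40 ± 0.16 SE), npp-2 (Nup85, -1.36 ± 0.16) and npp-18 (Seh1, -1.33 ± 0.21), each with an edgeR adjusted p at or below 1.03e-04. npp-5 (Nup107) followed at -0.99 ± 0.15. Smaller falls were seen for npp-6 (Nup160, -0.66 ± 0.15), npp-15 (Nup133, -0.66 ± 0.18) and npp-10 (-0.49 ± 0.17), whose precursor protein is cut into Nup98 and Nup96. The called members of the complex ran from -0.49 to -1.40, and the differences between them were not tested.

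The Y complex gene that was not called was npp-20 (Y77E11A.13, chromosome IV, 1490655 to 1496019), the Sec13 ortholog, a protein that is also a coat subunit of vesicles leaving the endoplasmic reticulum. Its normalized counts were 66.0, 93.1, 70.5 and 81.5 CPM in embryo replicates 1 to 4 and 71.8, 57.0, 69.6 and 70.6 CPM in larvae replicates 1 to 4. The stages overlapped, and only larvae replicate 2 lay below all embryos. Its log2 fold change was -0.21 ± 0.16 (edgeR adjusted p = 0.243), but npp-20 was called lower with library totals only (-0.70, adjusted p = 8.65e-04) and in limma on log2(TPM + 1) (-1.04, adjusted p = 3.55e-05), and in TPM all larvae lay below all embryos.

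All 4 inner ring genes were lower, within a narrow range. They were npp-19 (the Nup35/Nup53 ortholog, -1.11 ± 0.18 SE), npp-8 (Nup155, -0.90 ± 0.16), npp-13 (Nup93, -0.77 ± 0.16) and npp-3 (Nup205, -0.71 ± 0.17). Their edgeR adjusted p-values were 0.00217 or less. The summed level of the 4 genes was 218.7 TPM (transcripts per 1000000, corrected for gene length) in embryos and 68.0 TPM in larvae.

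The 3 genes of the central channel, whose FG proteins form 1 complex, all fell but by unequal amounts. npp-1 (K07F5.13, chromosome IV, 9858466 to 9862098), the Nup54 ortholog, had 107.7, 144.3, 123.8 and 113.6 CPM in the embryo libraries and 26.04, 31.2, 27.1 and 27.996 CPM in the larvae libraries. Every embryo library was thus more than 100 CPM and every larvae library under 32 CPM. Its log2 fold change was -2.12 ± 0.15 (edgeR adjusted p = 2.28e-07). npp-4 (the Nup58/Nup45 ortholog) was at -1.34 ± 0.19 and npp-11 (Nup62) at -0.92 ± 0.17. By annotated span, npp-1 overlaps the gene K07F5.12 on the same strand by 53 bases. K07F5.12, with a mean of 167 counts in embryos, changed by -2.13.

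Ratios of counts within a library do not depend on how libraries are scaled. They were formed for 3 pairs of channel genes and 3 pairs of importin alpha genes, and p-values of the two-sided exact permutation test over all 70 regroupings were adjusted over the 6 ratios. The smallest p that 4 against 4 libraries allow is 0.0286. The log2 ratio of npp-1 to npp-11 was -0.48 ± 0.18 (SD) in embryos and -1.69 ± 0.15 (SD) in larvae. This ratio was 2.32-fold lower in larvae with no overlap between stages (exact permutation p = 0.0286, adjusted p = 0.0429). The ratio of npp-4 to npp-11 moved less, from -0.56 ± 0.06 to -0.998 ± 0.12, and that of npp-1 to npp-4 moved from 0.08 ± 0.20 to -0.70 ± 0.27. Both had the same exact permutation p-values and no overlap. By TPM, which corrects for gene length, the 3 genes stood in the order npp-11, npp-4, npp-1 in each library of larvae. In embryos npp-1 was highest in replicate 1 and npp-4 in replicates 2 to 4. In replicate 2 the lead of npp-4 over npp-11 was narrow (84.84 against 84.78 TPM).

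**Figure D2:**
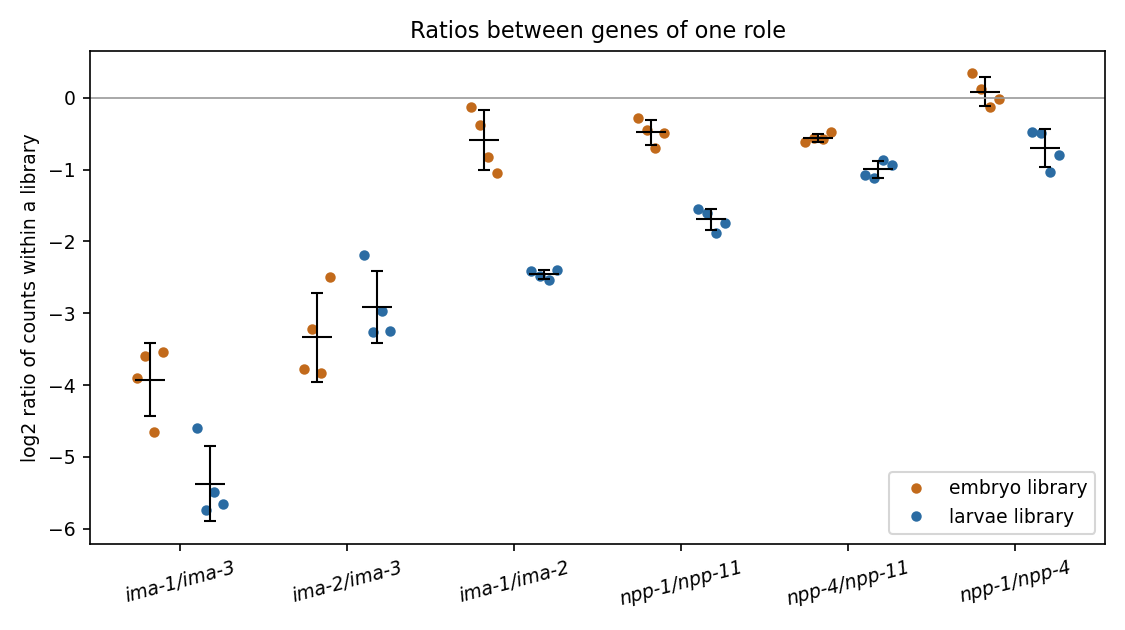
Log2 ratio of the counts of 2 genes within a library (vertical axis) for 6 pairs, with embryo and larvae libraries as points and the mean ± SD of 4 libraries as bars. The stages do not overlap for ima-1/ima-2 and the 3 npp- ratios, and overlap for both ratios to ima-3.

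On the cytoplasmic side, npp-24 (the Nup88 ortholog, -1.001 ± 0.20 SE) and npp-14 (Nup214, -0.45 ± 0.15) were lower in larvae. npp-9 (F59A2.1, chromosome III, 3400630 to 3404468) is the ortholog of Nup358/RanBP2, the large protein of the cytoplasmic filaments that binds Ran. It had 132.9, 194.6, 239.7 and 202.0 CPM in embryos and 237.3, 261.5, 255.6 and 274.4 CPM in larvae. Larvae were higher on average, but larvae replicate 1 lay under embryo replicate 3. The log2 fold change of npp-9, 0.42 ± 0.18, narrowly missed the threshold (edgeR adjusted p = 0.0529), was called without embryo replicate 3 (0.51, adjusted p = 0.0234), and turned to -0.058 when only library totals were used for scaling and to -0.33 in a limma fit on log2(TPM + 1).

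The nuclear basket side was lower for all 3 of its genes. npp-21, the ortholog of the basket protein TPR, changed by -0.85 ± 0.17 SE, npp-7 (Nup153) by -0.66 ± 0.15 and npp-16 (Nup50) by -0.45 ± 0.17. The call of npp-16 was the least secure of the 26 (edgeR adjusted p = 0.0331): it was lost in 6 of the 8 fits that left out 1 library, with adjusted p-values of 0.05004 to 0.0834 there. Its normalized counts overlapped between stages (49.0 to 75.0 CPM in embryos, 43.6 to 57.0 CPM in larvae).

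Among the membrane nucleoporins, npp-22 (the NDC1 ortholog, -1.50 ± 0.19 SE) and npp-25 (the TMEM33 ortholog, -1.40 ± 0.19) fell, and npp-12 went the other way. npp-12 (T23H2.1, chromosome I, 6447311 to 6453951) is the ortholog of gp210, a membrane nucleoporin with a large domain in the lumen of the envelope. Its normalized counts were 75.6, 108.8, 82.5 and 80.5 CPM in embryos and 156.2, 148.2, 126.9 and 135.0 CPM in larvae. All larvae lay above all embryos on this scale. npp-12 was the gene called higher, at 0.71 ± 0.16 (edgeR adjusted p = 0.00160), but with library totals only its log2 fold change was 0.22 and was not called (adjusted p = 0.205), and in TPM it was 17.7 ± 2.80 for embryos against 16.2 ± 2.08 for larvae (both SD, n = 4), with a log2 fold change of -0.12 in limma that was not called either. Relative to the median of all genes on the same scale, npp-12 stood at 0.74 with TMM, 0.75 with library totals and 0.61 in TPM. TMM and library totals differ by a shift that is nearly the same for every gene. The match of these 2 values was therefore fixed in advance.

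The largest fall of all was that of npp-26 (Y17G9B.1, chromosome IV, 4764740 to 4767831), a gene that was nearly silent in larvae. It had 315, 206, 146 and 173 counts in embryos and 2, 1, 0 and 2 counts in larvae. The 840 embryo counts against 5 larvae counts give a level 98.9-fold lower in larvae after scaling to library size, with an exact 95% interval of 42.2 to 305 that covers counting error only. The fitted log2 fold change was -6.52 ± 0.44 SE (edgeR adjusted p = 1.37e-07), and 3.08% of all genes tested had a lower one. That SE was back-calculated from the F statistic and, with 5 larvae counts, understates the error. The counting interval is the wider of the 2. In limma on log2(TPM + 1), where the pseudocount exceeds the larvae levels, the estimate was -2.78. The spread in embryos was small, at 7.7, 8.3, 8.1 and 7.8 CPM. The next gene on the same strand, Y17G9B.2, starts 197 bases away and fell alike, from a mean of 817 counts in embryos to 2.25 in larvae.

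npp-27 (C49H3.9, chromosome IV, 7906771 to 7909462) had the largest fall after those of npp-26 and npp-1. It had 88.4, 104.2, 125.8 and 90.8 CPM in embryos and 38.4, 32.7, 26.7 and 31.9 CPM in larvae, with no overlap. The log2 fold change was -1.66 ± 0.17 SE (edgeR adjusted p = 4.19e-06).

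Of the 3 importin alpha genes, ima-1 was called lower and ima-2 and ima-3 were not called. ima-1 (T19B10.7, chromosome V, 11239657 to 11241762) had 26.4, 34.1, 27.4 and 30.9 CPM in embryos and 11.9, 9.8, 8.6 and 8.8 CPM in larvae. It was lower in every larvae library, at -1.60 ± 0.18 SE (edgeR adjusted p = 7.38e-06). ima-2 (F26B1.3, chromosome I, 6315233 to 6317269), which is required in the C. elegans embryo, had 28.7, 44.2, 48.5 and 63.7 CPM in embryos and 63.4, 55.1, 50.0 and 46.8 CPM in larvae. These ranges overlapped widely. Its log2 fold change of 0.22 ± 0.22 was not called (edgeR adjusted p = 0.385) and became -0.26 with library totals and -0.56 in limma on log2(TPM + 1).

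ima-3 (F32E10.4, chromosome IV, 7558692 to 7561655), the importin alpha known from both germ line and soma in C. elegans, was the most abundant of the 3 in every library. It had 395.5, 413.5, 687.8 and 360.2 CPM in embryos and 290.2, 527.0, 390.1 and 446.2 CPM in larvae. Embryo replicate 3 stood apart at the top, and the rest of the 2 stages overlapped. The log2 fold change was -0.17 ± 0.24 (edgeR adjusted p = 0.544), and without embryo replicate 3 it was 0.050. ima-3 was called lower with library totals only (-0.64, adjusted p = 0.0234) and in limma on log2(TPM + 1) (-0.97, adjusted p = 0.00355), and in TPM all larvae lay below all embryos. It made up 79.8 ± 6.11% of the summed TPM of the 3 importin alphas in embryos and 80.7 ± 6.03% in larvae (both SD, n = 4).

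The balance between the minor importin alphas changed with stage. ima-1 and ima-2 held 7.65 ± 1.97% and 12.6 ± 4.75% of that sum in embryos, and 2.88 ± 0.87% and 16.4 ± 5.18% in larvae (all SD, n = 4). Within a library, the log2 ratio of ima-1 to ima-2 was -0.12, -0.37, -0.82 and -1.04 in embryos and -2.41, -2.48, -2.53 and -2.40 in larvae. The larvae libraries were close together and all below the embryos, with a 3.64-fold lower ratio (exact permutation p = 0.0286, adjusted p = 0.0429). The ratios to ima-3 overlapped between stages: ima-1 to ima-3 differed by -1.45 (exact permutation p = 0.0571, adjusted p = 0.0686) and ima-2 to ima-3 by 0.42 (exact permutation p = 0.314, adjusted p = 0.314).

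**Figure D3:**
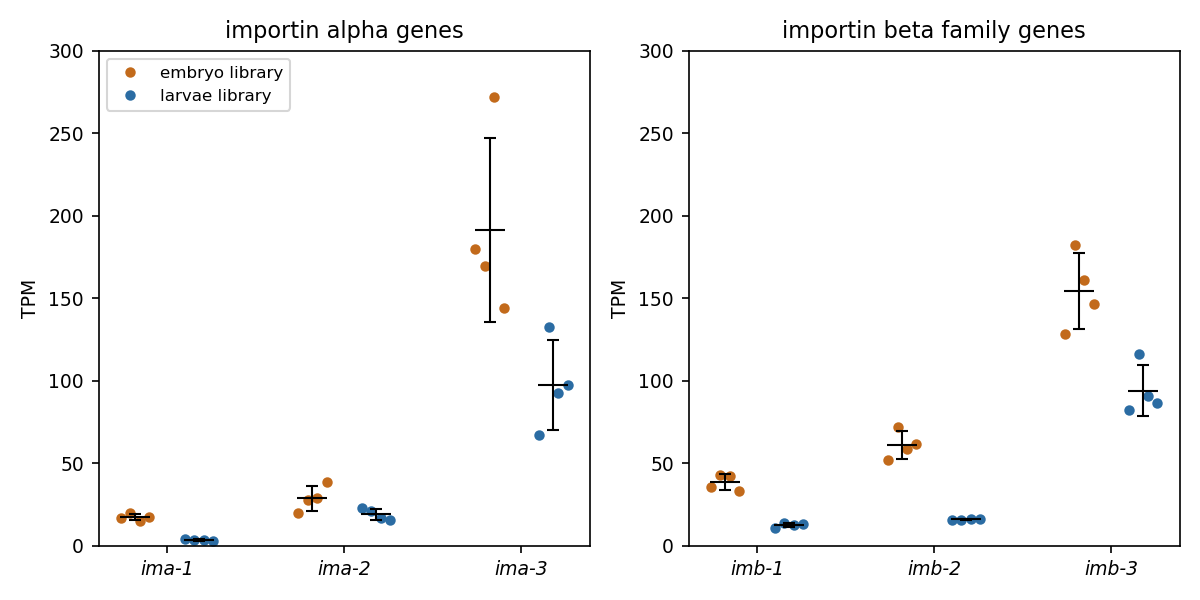
TPM of the importin alpha (left) and importin beta family genes (right) in each embryo and larvae library (points), with the mean ± SD of 4 libraries. ima-3 and imb-3 are the most abundant in both stages, and the stages overlap in TPM only for ima-2.

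Of the importin beta family, the general import receptor and transportin fell, and imb-3 did not pass the test. imb-1 (F28B3.8, chromosome I, 4920681 to 4926236) encodes importin beta and had 105.0, 140.7, 143.2 and 111.6 CPM in embryos and 59.7, 72.5, 70.5 and 77.0 CPM in larvae. The larvae libraries all lay below the embryo libraries, at -0.84 ± 0.16 SE (edgeR adjusted p = 4.92e-04). imb-2 (R06A4.4, chromosome II, 14365629 to 14373783) encodes transportin, which imports RNA-binding proteins. Its values were 136.7, 227.6, 198.8 and 184.7 CPM in embryos and 76.9, 74.0, 72.3 and 87.2 CPM in larvae. It fell further than imb-1, at -1.27 ± 0.17 (edgeR adjusted p = 3.81e-05), though the difference between them was not tested.

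imb-3 (C53D5.6, chromosome I, 310981 to 314992) encodes the importin-5 ortholog, a receptor for ribosomal proteins and histones in other species. It had 407.0, 638.4, 586.0 and 528.5 CPM in embryos and 502.0, 666.8, 571.1 and 565.5 CPM in larvae, which overlapped. Its log2 fold change, 0.09 ± 0.17 (edgeR adjusted p = 0.639), was -0.038 without embryo replicate 1, -0.38 with library totals only (called, adjusted p = 0.0408) and -0.71 in limma on log2(TPM + 1) (called, adjusted p = 0.00170).

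Levels between genes were compared per length, in the TPM the authors deposited. For 29 of the 32 genes all larvae lay below all embryos in TPM, as for 53.5% of all genes tested. The 32 genes summed to 1686 to 2159 TPM in embryos and 635 to 794 TPM in larvae, a range without overlap, and took 0.494% to 0.626% of gene counts in embryos and 0.256% to 0.313% in larvae. In embryos the highest levels were ima-3 (191 ± 55.8 TPM, SD, n = 4), npp-25 (168 ± 31.2) and imb-3 (154 ± 22.7), which did not differ from each other beyond their spread, followed by npp-20 (85.7 ± 11.9). The lowest was npp-26 (6.12 ± 0.36), below npp-15 (15.9 ± 3.38), npp-24 (16.5 ± 2.52) and ima-1 (17.4 ± 1.93), which were within their spread of each other.

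In larvae the order by TPM differed. ima-3 (97.3 ± 27.0 TPM, SD, n = 4) and imb-3 (94.0 ± 15.4) led, within their spread of each other, and npp-9 (56.1 ± 4.53) held rank 3, from rank 8 in embryos. npp-9 took 4.93% of the summed npp- TPM in embryos and 12.2% in larvae, and npp-12 1.22% and 3.51%. npp-1 went the other way, from 4.70% to 2.17% and from rank 11 among the 32 to rank 24. npp-25 went from rank 2 in embryos to rank 5 in larvae, at 35.1 ± 4.18 TPM.

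**Figure D4:**
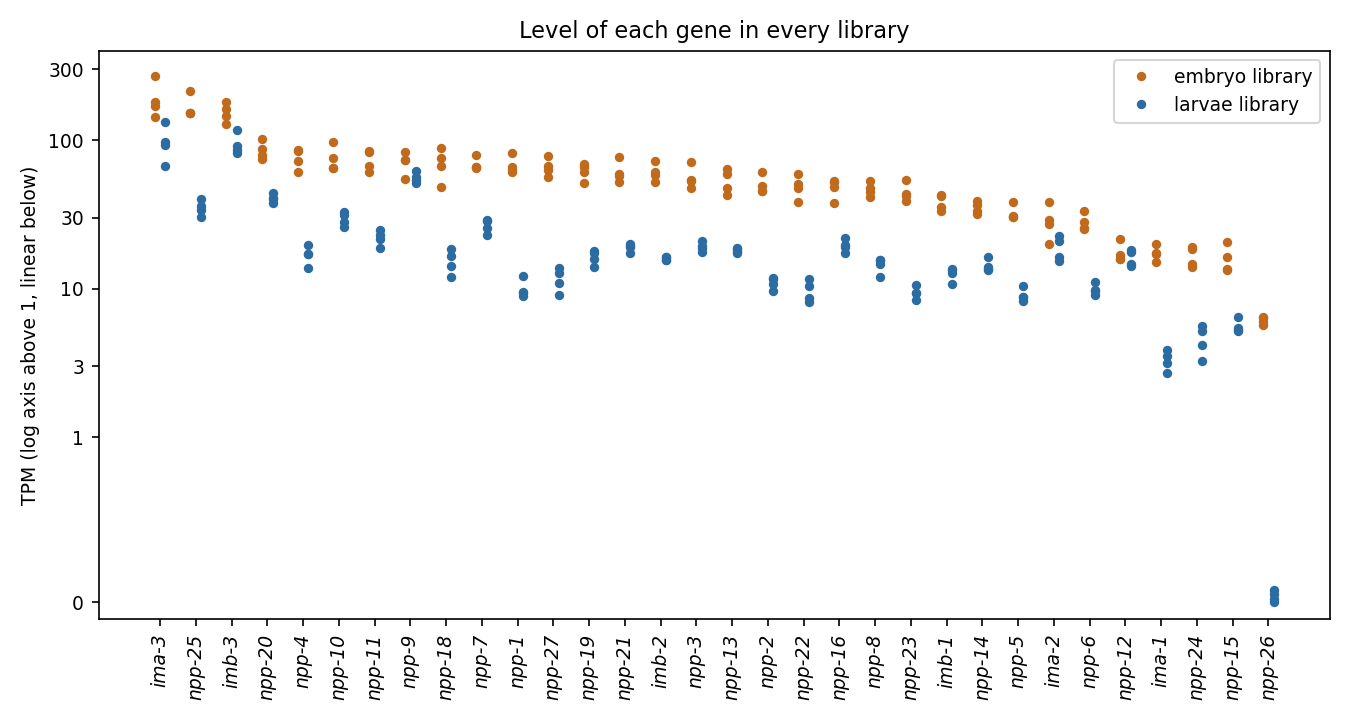
TPM of the 32 genes (vertical axis, logarithmic above 1 and linear below) in each embryo and larvae library, ordered by mean embryo level. Larvae points lie below embryo points for 29 genes and overlap them for ima-2, npp-9 and npp-12.

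The number of genes called lower differed between the fits. Scaled by library totals only, the median over all genes tested moved to -0.53, 29 of the 32 genes were lower and none was higher by edgeR (48.7% of all genes lower, 27.1% higher). In limma on log2(TPM + 1), which differs from the edgeR fit in the test, the length correction and the pseudocount as well, the median of all genes was -0.72, with 30 lower and none higher (56.7% and 22% of all genes). Of the 32 genes, 28 had an unadjusted edgeR p under 0.05 with TMM scaling. At least 74.1% of all genes did too, as that share was called after adjustment. DESeq2 called 26 of the 32 genes lower and 1 higher (37.8% and 36.6% of all genes). Relative to the median of all genes on the same scale, the median of the 32 was -0.84 with TMM, -0.84 with library totals and -0.90 in TPM. The match between TMM and library totals was fixed in advance, as they differ by nearly the same shift for every gene. The 4 genes above the median of all genes on these scales, npp-12, npp-9, ima-2 and imb-3, were above it in TPM too. For imb-3 the margin in TPM was only 0.013, which is at the median for practical purposes, against 0.61 for npp-12. Against a fold of 2 as the null, edgeR called 11 of the 32 genes lower and none higher, where it called 20.2% of all genes lower and 23.4% higher.

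**Figure D5:**
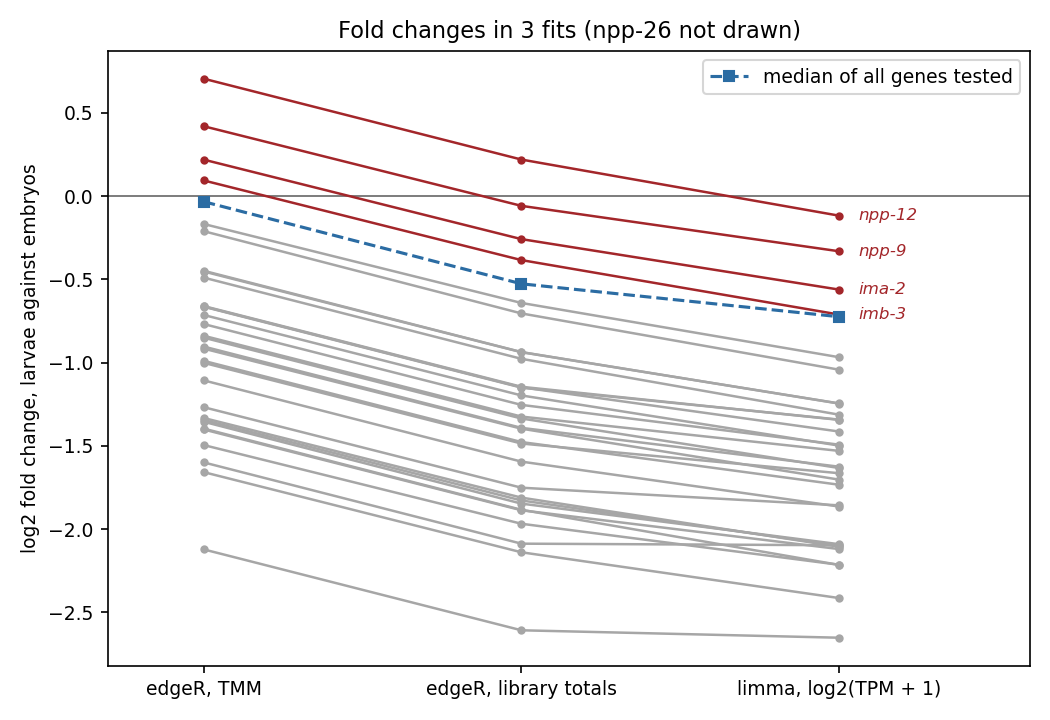
Log2 fold change of 31 genes, larvae against embryos (vertical axis), in 3 fits (horizontal axis), with 1 line per gene; npp-26 lies far below the others in the edgeR fits (-6.52 and -6.99, and -2.78 in limma) and is not drawn. The dashed line is the median of all genes tested, which moves from -0.03 to -0.53 and -0.72. The 4 named genes in red cross 0 while staying above that line, imb-3 by only 0.013 in limma.

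The libraries of a stage were not alike for these genes. Embryo replicate 1 had the lowest normalized count of the 4 embryo libraries for 31 of the 32 genes, with a median of -0.32 (log2) to the embryo mean, and embryo replicate 2 had the highest for 21. Embryo replicate 1 also had the lowest summed TPM of the cell division genes (3071, other embryos 3631 to 4876) and of the maternal RNA-binding genes (948, others 1336 to 1697), and the highest of the body muscle genes (764, others 534 to 562). Embryo replicate 2 had the highest summed TPM of the genes of adult worms (62.1, other embryos 0.872 to 7.07). The part of these markers in the spread was not tested. Without embryo replicate 1 the median log2 fold change of the 32 genes was -0.99. For these 32 genes larvae libraries spread less, with a median coefficient of variation of 10.2% against 17.9% in embryos. Over all genes tested the order was the reverse, as edgeR's common coefficient was 30.9% in larvae and 21.8% in embryos.

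Genes that work with the pore moved unevenly. Of all genes tested, 37.2% were called lower and 36.9% higher. Of the 5 genes of the Ran cycle, 2 were lower, near the share of all genes, 1 was higher and 2 were not called. The gene called higher was ran-3, which encodes the exchange factor that loads Ran with GTP, at 0.49 ± 0.17 SE (edgeR adjusted p = 0.0177), a call that was lost without embryo replicate 3 (0.41, adjusted p = 0.0590) and a value that was -0.0018 with library totals only and -0.30 in limma on log2(TPM + 1). Of 15 export receptor and mRNA export genes, 14 were lower and none was higher, with a median of -1.03. The largest fall was that of aly-1, an mRNA export adaptor, at -2.41 ± 0.17 (280.6 ± 43.3 TPM in embryos, 28.9 ± 3.41 in larvae, SD, n = 4). Of 12 nuclear envelope and lamina genes, 10 were lower, among them sun-1, which links chromosomes to the envelope, at -2.33 ± 0.23, and vrk-1, the kinase of the chromatin-binding protein BAF-1, at -2.03 ± 0.17. unc-83 and ran-4 had the next highest log2 fold changes of the listed genes, 0.27 ± 0.15 and 0.18 ± 0.20, neither called, and both were below 0 with library totals (-0.22 and -0.30).

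Markers of dividing, germline and differentiated cells were read from the same libraries. Beside them, 37.2% of all genes tested were called lower, 36.9% higher and 74.1% in either direction. A call alone was therefore common here too. All 12 cell division genes were lower in larvae, with a median of -2.54 and a summed level of 3071 to 4876 TPM in embryos and 153 to 227 TPM in larvae. All 10 maternal RNA-binding genes were lower, with a median of -4.93 and sums of 948 to 1697 TPM and 30.2 to 46.8 TPM. Of 10 germline genes, 5 were lower, 1 was higher and 4 were not called, with sums of 130.5 to 231 TPM in embryos and 51.7 to 82.9 TPM in larvae. In the other direction, 4 of 4 body muscle genes were higher (534 to 764 TPM in embryos, 2372 to 3312 TPM in larvae), as were 4 of 5 intestine genes (none lower) and 4 of 6 larval cuticle genes (1 lower). Neuron genes were mixed, with 3 of 5 higher and 1 lower. Their summed level was lower in larvae (415 to 576 TPM in embryos, 231 to 297 TPM in larvae). Of 9 genes of adult worms, 5 passed the filter and none was called. The 9 summed to 1.04, 62.1, 0.872 and 7.07 TPM in embryo replicates 1 to 4, so replicate 2 stood apart. In larvae replicates 1 to 4 they summed to 18.3, 1.97, 6.09 and 2.44 TPM. The part of these lists in the fall of the pore genes was not tested.

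None of the 32 genes lies on the X chromosome, which holds 13.8% of the genes in the table. They are spread over the autosomes, with 11 on chromosome I, 6 on II, 6 on III, 7 on IV and 2 on V. By span, 14 of them overlap another gene and 3 overlap one on the same strand (npp-1, npp-6 and npp-24), and npp-21 overlaps osm-8, whose strand was not given in the annotation used. Whether the counting used the strand of the reads is not given in the sources used here, so reads in such overlaps may be shared or left out.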

How the data were processed

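Poly(A) RNA from whole embryos and larvae was made into stranded dUTP libraries and read single-end. The deposited raw counts are whole reads per gene, which the authors obtained with Tophat 2.1.1 on the WS220 genome and HTSeq (0.6.1 in the methods, 0.6.1p1 in the submitters' processing notes, which also name CASAVA 1.8, Cufflinks 2.2.0 and DESeq2). The 5 summary classes were left out. Of reads in genes, in no gene and ambiguous together, reads in no gene came to 3.26% to 6.06% and ambiguous reads to 0.861% to 1.07%. The deposited TPM are the authors' values, corrected for gene length and scaled to a common sum by a method not given in the sources used here. 14 further columns of that table and the authors' comparison with wild type (mean, log2 fold change, p-value) were not used, apart from its WormBase identifiers. Symbols came from those identifiers (19109 of 20389 genes). Coordinates are 1-based WS220 positions from the TPM table.

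Members and gene lists were chosen with earlier results of these data known. Stages were compared with edgeR 4.0.16 (glmQLFit, glmQLFTest, TMM, filterByExpr; limma 3.58.1, R 4.3.3), and p-values were adjusted over 13571 genes and called at 0.05. Alternatives were DESeq2 1.42.0, library totals only, no filter on low counts, a fold of 2 as the null, an adjusted p under 0.01, limma on log2(TPM + 1) and log2(TPM + 0.1), the replicate number as a block, and leaving out each library. Ratios used log2 of counts + 0.5 with exact permutation (Python 3.11.15). The code was tested on simulated counts. The methods call the replicates biological, without saying whether cultures were separate, so p-values measure the spread between these libraries. Intervals cover counting error only. Each edgeR SE was the absolute log2 fold change divided by the square root of the F statistic, not an error estimated by the fit. Every member was named. Values per library were given for importins, the 3 largest rises and falls and members not called. Of the listed Ran cycle, export and envelope genes, the 3 largest changes in each direction were named.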

Additional observations from a re-analysis of the deposited data

Results flagged for a closer look

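Within each stage, the normalized count of every gene was examined for a library far from the other 3, in 64 groups of 4 libraries, of which chance alone would mark about 3.2. There were 2 such cases. ima-3 had 688 CPM in embryo replicate 3, where the other embryos had 360.2 to 414 CPM. npp-20 had 57.0 CPM in larvae replicate 2, where the other larvae had 69.6 to 71.8 CPM. Neither gene was called between stages with TMM scaling, and both were called lower with library totals only and in limma on TPM.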

How the results depend on the processing

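The numbers of genes in the 2 directions differed between the fits and with the threshold, and the direction of the median did not. With library totals only, the median log2 fold change of the 32 genes was -1.36, and in limma it was -1.63 on log2(TPM + 1) and -1.68 on log2(TPM + 0.1). The number of the 32 genes called higher was 0 in these 3 fits and 0 against a fold of 2, where 11 were lower and 5913 of all genes were called. The median ratio of larvae to embryo level over the 32 genes was 0.309 in TPM and 0.389 in CPM over library totals. Genes that turned direction did so as follows. With library totals they were imb-3 (-0.38), ima-2 (-0.26), npp-9 (-0.058), ran-3 (-0.0018), unc-83 (-0.22) and ran-4 (-0.30). In limma on log2(TPM + 1) and log2(TPM + 0.1) they were npp-12 (-0.12 and -0.12), npp-9 (-0.33 and -0.34), ima-2 (-0.56 and -0.58), imb-3 (-0.71 and -0.72), ran-3 (-0.30 and -0.30), unc-83 (-0.65 and -0.66) and ran-4 (-0.66 and -0.67). When 1 library was left out, imb-3 turned to -0.038 without embryo replicate 1 (range -0.038 to 0.167) and ima-3 to 0.050 without embryo replicate 3 (range -0.30 to 0.050).

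Leaving out each library in turn gave 25 to 26 genes lower, 1 to 2 higher, a median of -0.99 to -0.83, and 9726 to 10363 of all genes called. The difference in the ima-1 to ima-3 ratio ran from -1.70 to -1.32 and passed the exact permutation test without larvae replicate 1 (adjusted p = 0.0343). The 4 ratios whose stages do not overlap cannot lose their exact permutation call when a library is left out, so these fits do not bear on them. In TPM and with the other pseudocounts, all 6 ratios kept their direction and their side of the threshold. These genes had at least 127 counts in every library, so the choice of count pseudocount could hardly move them. With an adjusted p under 0.01, npp-10, npp-14, npp-16 and ran-3 were no longer called.

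Embryos and larvae of the same replicate number did not deviate together (correlations of -0.19 to 0.07), so the numbers were not taken as pairs. With the replicate block 26 of the 32 genes were lower and 2 were higher, the second being npp-9 (0.45, adjusted p = 0.0446). Depth limited npp-26 in larvae, where 5 counts in all leave its fold change open over the interval given. The causes of these differences were not tested.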
